A study of Mus musculus with 18 samples.

Results

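The genes described here are 41 transcripts typical of macrophages and related myeloid cells, taken as a fixed list of symbols, and all 41 were found among the 20325 genes of the deposited expression tables. They were measured by RNA sequencing in C3H10T1/2 cells, a mouse embryo-derived mesenchymal line, and in tumors that grew from a derivative of that line. Cells with a stable FLAG-HA-tagged histone carried wild-type H3.3 (n = 2), H3.3K36M, in which lysine 36 is replaced by methionine (n = 2), or H3.1K36M, the same change in the H3.1 variant (n = 2). Parental cells had received a scramble siRNA, called control siRNA (n = 3), or siRNAs against the methyltransferases Nsd1, Nsd2 and Setd2, called HMT siRNA (n = 3). All cultured cells were at passage 10 to 15. The 6 tumors grew from 2000000 H3.3K36M cells, given with Matrigel under the skin of both flanks of athymic female SCID mice aged 6 to 8 weeks, and were taken after 5 to 6 weeks. The labels give neither the number of clones behind a line nor which tumors shared a mouse, and no tumor of another genotype was analysed here. Such mice lack functional T and B cells but keep macrophages, other myeloid cells and natural killer (NK) cells, and host and injected cells are both of mouse origin, so their reads cannot be told apart.

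Macrophages are phagocytes that depend on signalling through the receptor Csf1r, whose ligands are Csf1 and Il34, and monocytes enter tissue from blood largely through Ccr2 and its chemokine ligands. They bind antibody-coated particles through Fc receptors, signal through ITAM adaptors such as Tyrobp and Fcer1g, and digest what they engulf in lysosomes. The transcription factor PU.1 binds a purine-rich core, often written GAGGAA, at many myeloid promoters. Mesenchymal cells such as fibroblasts normally express few of these genes, although some lysosomal, adhesion and pattern-recognition genes are shared between the lineages.

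Library depth was 13993307 to 56041798 estimated reads. Levels are estimated counts normalised by the authors, and 1 read was worth 0.578 to 1.44 in the table that holds the tumors and 0.438 to 1.73 in the siRNA table. The tables were scaled separately, so values are compared within a table, and levels of different genes are not compared because they are not per length. The word difference below means a difference of mean log2(value + 1), given with its standard error (SE) and a limma p adjusted over all genes tested, and called means an adjusted p below 0.05. The labels do not say whether a group's libraries came from different cultures, so p-values measure the spread between these libraries. Mesenchymal markers such as Col1a1 and Prrx1 were abundant in the cultured libraries, where the 7 genes of that list summed to 591730 to 780724.

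All 41 genes were higher in the 6 tumors than in the H3.3K36M cells they came from. The test covered 14842 genes, of which 6086 (41%) were called higher and 34.2% lower in tumors. The median difference of the 41 genes was 9.44 on the log2 scale, against 0.14 for all genes tested. Genes tested needed 10 or more in as many libraries as the smaller group held. Of the 41, 13 reached 10 in both H3.3K36M libraries, and the rest passed this filter only through the tumors. The list was also chosen with earlier results of these data known, so the count is a description. Without a filter on low values 41 were again higher, against 29.5% of all genes. For each of the 41 every tumor lay above all 6 cultured libraries of the same table, which held for 32.8% of genes tested. Adjusted p ran from 2.02e-11 to 5.03e-06. Their summed level was 440282 to 608094 in tumors, 2833 to 2934 in H3.3K36M cells, 2719 to 2887 in H3.1K36M cells and 567 to 618 in H3.3 wild-type cells. In bulk tissue, more cells of a type and more RNA per cell cannot be told apart.

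Cultured cells held little of most of these transcripts. For 33 of 41 genes every cultured library of the table stayed below 1% of the tumor mean, and for 37 below 5%. Cd14, Gpnmb, Cd53 and Cd84 were the exceptions. In the H3.3K36M libraries 7 genes (C1qa, C1qb, C1qc, Fcgr2b, Fcrls, Clec7a and Ms4a7) were listed at 0, so no fold is given for them. Those 7 had fitted differences above the median, and the median of the other 34 was 8.99. Another 6 genes (Fcgr3, Tyrobp, Fcer1g, Clec4n, Cd86 and Emr1) stood at no more than a few reads there and are given as levels only. Where a fitted difference below starts from a few reads, as for Msr1, Mrc1 and Ctss, its size depends on the added 1.

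**Figure D1:**
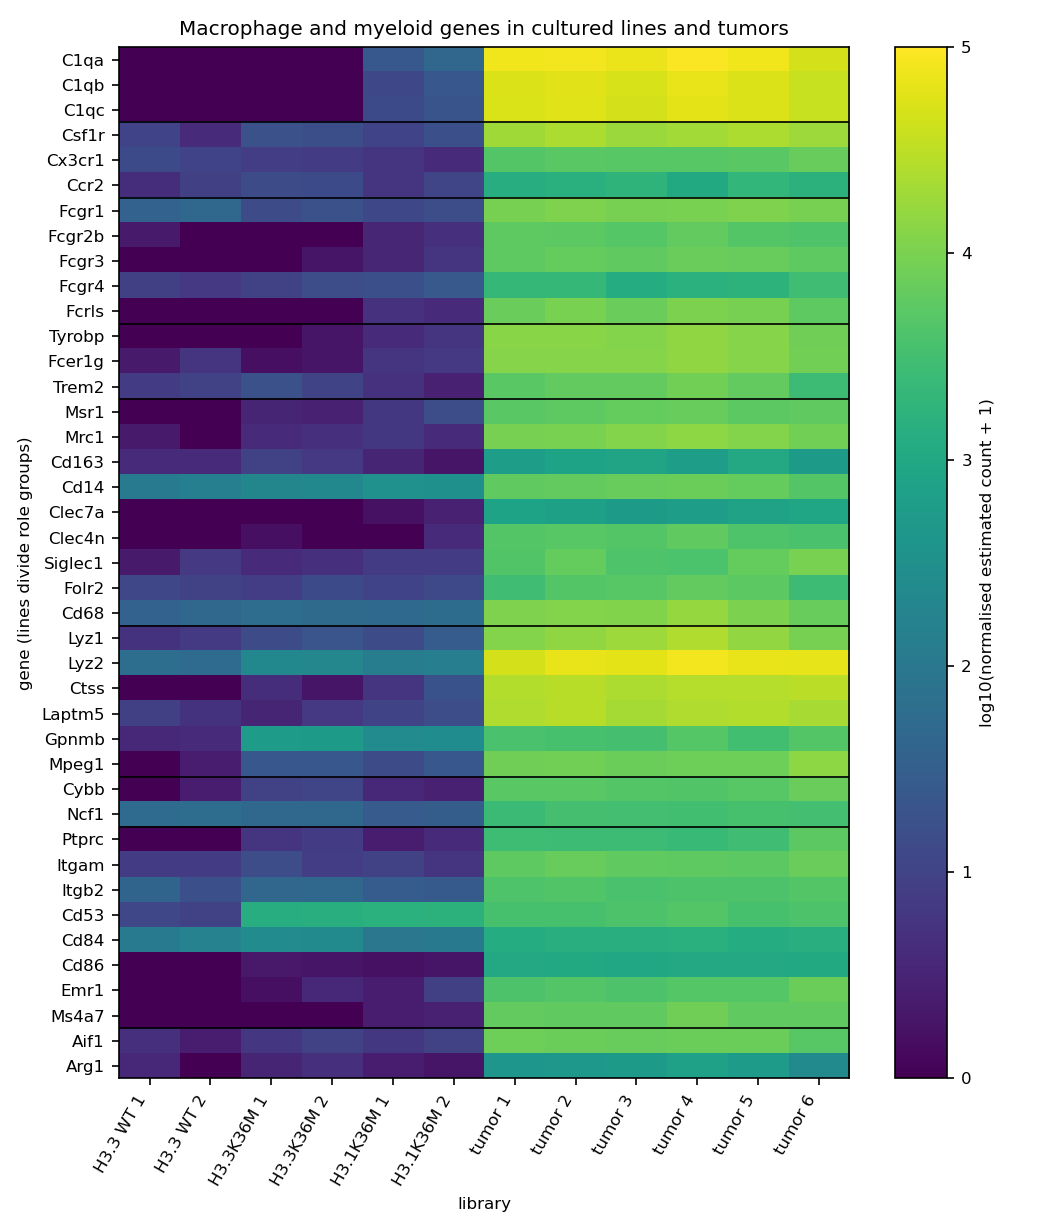
Heat map of the 41 genes (rows, ordered by role with lines between roles) in 12 libraries (columns), coloured by log10(normalised estimated count + 1). The 6 tumors form a bright block for every gene, while Cd53 and Gpnmb are also bright in the H3.3K36M and H3.1K36M libraries and C1qa, C1qb and C1qc show traces in the H3.1K36M libraries only.

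Complement C1q is the recognition molecule of the classical complement pathway, built from chains encoded by C1qa, C1qb and C1qc, and tissue macrophages are its main source. C1qa was listed at 0 in both H3.3 wild-type and both H3.3K36M libraries, at 22.3 and 43.1 in the H3.1K36M libraries, and at 46784 to 94129 in tumors (median 76966). C1qb had the same zeros, 11.2 and 22.0 in H3.1K36M cells and 38656 to 68806 in tumors (median 55542). C1qc was at 0, then 12.6 and 19.2, and 37729 to 63006 (median 53083). For each chain tumor 4 was the highest and tumor 6 the lowest, and no tumor came near the cultured range. Because these chains are encoded side by side on chromosome 4 and moved together, the 250 bases before the start of 2 of them are shown, 5′ to 3′, with GAGGAA or its reverse complement TTCCTC in capitals (RefSeq, GRCm38.p6; C1qb at chr4:136886201-136886450 and C1qc at chr4:136892915-136893164, both minus strand). The expression files use mm9, another build, so these positions locate the sequence only.
C1qb: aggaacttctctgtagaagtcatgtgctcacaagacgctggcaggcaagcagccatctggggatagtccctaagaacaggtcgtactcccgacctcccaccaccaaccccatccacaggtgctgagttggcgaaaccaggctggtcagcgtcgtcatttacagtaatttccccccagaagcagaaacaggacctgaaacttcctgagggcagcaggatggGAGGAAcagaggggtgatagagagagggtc
C1qc: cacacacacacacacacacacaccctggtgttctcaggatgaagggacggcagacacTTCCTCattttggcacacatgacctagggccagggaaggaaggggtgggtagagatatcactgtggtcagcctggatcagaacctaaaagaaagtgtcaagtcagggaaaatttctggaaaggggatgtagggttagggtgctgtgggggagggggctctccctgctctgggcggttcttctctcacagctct
Each of the 2 windows held 1 copy. A sequence was at hand for 30 of the 41 genes, and 16 of the 30 (53.3%) held the core on either strand within 250 bases before the start, against 23.1% of all 27025 promoter sequences. No other motif was searched, and a match is a description of letters, not a binding site.

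Receptors for growth factors and chemokines separated the groups by a wide margin. Csf1r, the receptor that macrophages need to survive, was at 9.35 and 2.89 in wild-type, 16.8 and 15.2 in H3.3K36M, 9.07 and 15.3 in H3.1K36M cells and 17798 to 24779 in tumors (median 20151). The tumors lay 10.26 ± 0.14 above H3.3K36M cells (adjusted p = 3.63e-11). Cx3cr1, the fractalkine receptor of resident macrophages and monocytes, was at 12.1 and 9.28 in wild-type and 7.0 and 6.25 in H3.3K36M cells. It was at 4.98 and 2.88 in H3.1K36M cells and 4638 to 6741 in tumors (median 5134). The tumors differed from H3.3K36M cells by 9.44 ± 0.14 (adjusted p = 5.4e-11). Tumor 6 held the highest Cx3cr1 level. Ccr2, the receptor that brings monocytes out of the bone marrow, was at 3.59 and 8.00 in wild-type, 13.1 and 12.2 in H3.3K36M, 4.93 and 9.85 in H3.1K36M cells and 1065 to 2063 in tumors (median 1561), a difference of 6.80 ± 0.23 (adjusted p = 8.83e-09).

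Fc receptors bind the constant part of antibodies, and all 5 genes of this group were higher in tumors. Fcgr1, the high-affinity receptor, was at 36.1 and 44.8 in wild-type, 13.3 and 16.1 in H3.3K36M and 11.0 and 14.4 in H3.1K36M cells. It was at 9228 to 10757 in tumors (median 9715), 9.31 ± 0.10 above H3.3K36M cells (adjusted p = 2.02e-11). The tumors differed little for Fcgr1, with a coefficient of variation (CV) of 6.64%. Fcrls, an Fc receptor-like secreted scavenger, was listed at 0 in all H3.3 libraries, at 4.19 and 2.88 in H3.1K36M cells and at 5628 to 10153 in tumors (median 8355). Fcgr4, which binds IgG2 antibodies, was at 8.02 and 5.75 in wild-type, 8.67 and 14.2 in H3.3K36M, 15.4 and 23.96 in H3.1K36M cells and 1272 to 2901 in tumors, a difference of 7.28 ± 0.29 (adjusted p = 3.41e-08). Fcgr2b, the inhibitory receptor, and Fcgr3 reached 4200 to 6218 and 5626 to 7219 in tumors. In the GENCODE annotation of GRCm38, 8.86% and 15.9% of the 36-base stretches of Fcgr2b and Fcgr3 also occur in another gene, so the split of reads between this pair is uncertain.

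The ITAM adaptors and their partner showed the same direction. Tyrobp, also called DAP12, was at 0 and 0.949 in H3.3K36M cells and 8380 to 14884 in tumors (median 12410). Fcer1g, the common Fc receptor gamma chain, was at 0.578 and 0.949 in H3.3K36M cells and 8755 to 14541 in tumors (median 12320). In both adaptors tumor 6 was lowest and tumor 4 highest. Trem2, a lipid-sensing receptor that signals through Tyrobp, was at 16.2 and 9.49 in H3.3K36M cells and 2645 to 8762 in tumors (median 6239), a difference of 8.71 ± 0.38 (adjusted p = 6.45e-08).

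Scavenger receptors and lectins made up 9 of the 41 genes. Cd68, a lysosomal glycoprotein, was present in all cultures, at 36.3 and 47.6 in wild-type, 61.3 and 53.2 in H3.3K36M and 51.0 and 58.2 in H3.1K36M cells, and reached 6750 to 16416 in tumors (median 11111). The difference was 7.55 ± 0.26 (adjusted p = 1.21e-08). Mrc1, the mannose receptor CD206, was at 2.89 and 3.80 in H3.3K36M cells and 8745 to 13861 in tumors (median 10859), 11.29 ± 0.17 higher (adjusted p = 7.61e-11). Cd14, the co-receptor for lipopolysaccharide, was well above the other members of this group in its share of the tumor level kept in culture. It stood at 122 and 144 in wild-type, 200 and 215 in H3.3K36M, 343 and 324 in H3.1K36M cells and 4670 to 7684 in tumors (median 6452), so the tumors were 4.92 ± 0.17 above H3.3K36M cells (adjusted p = 9.92e-09). Folr2, a folate receptor of resident macrophages, was at 10.7 and 8.66 in wild-type, 6.94 and 12.3 in H3.3K36M, 9.07 and 11.5 in H3.1K36M cells and 2703 to 6419 in tumors (difference 8.72 ± 0.35). The scavenger receptors Msr1 and Cd163 reached 5203 to 6872 and 525 to 1031 in tumors, from no more than 2.31 and 8.11 in H3.3K36M cells. The fungal-sensing lectins Clec7a and Clec4n reached 530 to 911 and 3723 to 5924. Siglec1, a sialic acid-binding receptor of tissue macrophages, ranged from 3852 in tumor 4 to 10024 in tumor 6, the widest relative spread of the 41 genes (CV 38.8%).

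Lysosome and phagosome genes all rose in tumors, and Gpnmb among them was also well above 0 in the mutant cultures. Lyz2, a lysozyme used to mark myeloid cells, was at 62.5 and 54.6 in wild-type, 210 and 206 in H3.3K36M and 123 and 138 in H3.1K36M cells, and at 48242 to 80750 in tumors (median 66372). The tumors were 8.27 ± 0.17 above H3.3K36M cells (adjusted p = 3.26e-10). Lyz1, its neighbour and near copy, was at 4.30 and 6.21, 13.3 and 19.8, 13.4 and 27.4 in the same cultures and 9309 to 25032 in tumors (median 15159; difference 9.77 ± 0.32). Both lysozymes were lower in every culture than in any tumor. The pair shares 28.5% (Lyz1) and 27.3% (Lyz2) of their 36-base stretches, so their separate values are uncertain. Their start regions are shown to let the copies be compared (RefSeq, GRCm38.p6, minus strand; Lyz1 at chr10:117292869-117293118 and Lyz2 at chr10:117282273-117282522). No capitals appear because neither window holds GAGGAA or TTCCTC.
Lyz1: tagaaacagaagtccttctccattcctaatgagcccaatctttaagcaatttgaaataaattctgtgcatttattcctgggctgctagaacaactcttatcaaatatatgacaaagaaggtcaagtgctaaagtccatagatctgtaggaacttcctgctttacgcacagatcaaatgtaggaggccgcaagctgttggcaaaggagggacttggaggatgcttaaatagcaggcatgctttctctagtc
Lyz2: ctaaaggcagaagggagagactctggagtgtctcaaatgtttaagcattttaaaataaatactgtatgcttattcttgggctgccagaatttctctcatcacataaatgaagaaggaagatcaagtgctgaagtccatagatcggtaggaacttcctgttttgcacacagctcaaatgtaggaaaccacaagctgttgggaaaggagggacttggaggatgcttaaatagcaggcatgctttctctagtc
Compared position by position, 152 of 250 bases (60.8%) were identical, and 92 of the last 100 before the start. Ctss, the lysosomal protease cathepsin S, was at 0 and 0 in wild-type, 3.47 and 0.949 in H3.3K36M, 4.88 and 17.3 in H3.1K36M cells and 24504 to 29770 in tumors (median 27764; difference 13.18 ± 0.25). Its spread among tumors was small (CV 6.47%). Laptm5, a lysosomal membrane protein of blood cells, reached 21254 to 28610 from 2.31 and 5.70 in H3.3K36M cells. Mpeg1, the pore-forming protein perforin-2, was at 21.4 and 21.8 in H3.3K36M cells and 7519 to 14114 in tumors (median 8025; difference 8.61 ± 0.22). Gpnmb, a glycoprotein of lysosomes and melanosomes, had a much smaller tumor difference of 2.80 ± 0.17 (adjusted p = 7.64e-07), from 548 and 532 in H3.3K36M cells to 3105 to 4852 in tumors (median 3550). Tumor 4 was highest for Lyz1, Lyz2 and Gpnmb.

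The NADPH oxidase of phagocytes makes superoxide. Its membrane subunit Cybb was at 8.85 and 9.89 in H3.3K36M cells and 4478 to 7226 in tumors (median 5105; difference 8.97 ± 0.17, adjusted p = 2.32e-10). The organiser subunit Ncf1 was at 54.1 and 60.5 in wild-type, 48.0 and 47.0 in H3.3K36M and 26.9 and 28.2 in H3.1K36M cells, and at 2521 to 3468 in tumors (median 3158; difference 6.00 ± 0.12, adjusted p = 3.36e-10). Neither subunit overlapped between tumors and cultures.

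Of the leukocyte surface and adhesion genes, Itgam and Itgb2 encode the chains of the complement receptor CR3. Itgam was at 13.9 and 7.09 in H3.3K36M cells and 5527 to 7116 in tumors (median 5900; difference 9.13 ± 0.20). In the GENCODE annotation of GRCm38, 73.0% of the 36-base stretches of Itgam also lie in another gene, most of them in Gm49368. The annotation behind the deposited values is not given, so the Itgam value may be uncertain. Itgb2 was at 40.1 and 15.9 in wild-type, 43.9 and 48.4 in H3.3K36M and 27.2 and 24.9 in H3.1K36M cells, and at 3705 to 4648 in tumors (median 4143; difference 6.47 ± 0.10). Ms4a7, a membrane protein of tissue macrophages, was listed at 0 in all H3.3 libraries, at 1.40 and 1.92 in H3.1K36M cells and at 5930 to 8342 in tumors (median 6081). Ptprc, which encodes the pan-leukocyte protein CD45, was at 4.62 and 6.64 in H3.3K36M cells and 2418 to 5592 in tumors. Emr1, which encodes the macrophage marker F4/80, was at 0.578 and 2.85 in H3.3K36M cells and 4048 to 7589 in tumors. Both were highest in tumor 6. Cd86, a co-stimulatory ligand for T cells, was the steadiest of the 41 genes, at 1015 to 1095 (CV 2.73%).

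Cd53 and Cd84 stood apart in this group. Cd53, a tetraspanin of leukocytes, was at 1287 and 1407 in H3.3K36M cells against 3452 to 4635 in tumors (median 3740), a difference of only 1.51 ± 0.12 (adjusted p = 5.03e-06) and the lowest of the 41. Cd84, a SLAM family adhesion receptor, was at 258 and 235 in H3.3K36M cells and 1223 to 1522 in tumors (median 1339; difference 2.43 ± 0.11, adjusted p = 5.93e-08). The cytoplasmic genes were Aif1, which encodes the actin-bundling protein Iba1, and Arg1, which encodes arginase. Aif1 went from 5.20 and 8.54 to 5063 to 7875 (median 7568; difference 9.83 ± 0.20), and Arg1 from 2.31 and 3.80 to 240 to 734 (median 496; difference 6.89 ± 0.37). In both, tumor 6 was the lowest.

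Partners of these genes moved in the same direction. All 11 listed myeloid transcription factors and all 16 ITAM and leukocyte signalling genes were called higher in tumors, as were all 5 NADPH oxidase partners. Rac2 is on both of the last 2 lists, and 41% of all genes tested were higher. Every tumor lay above all 6 cultured libraries for 10 of the 11 factors and for all genes of the other lists, against 32.8% of genes tested. PU.1, listed under its older symbol Sfpi1, was at 4.6 and 2.8 in H3.3K36M cells and 4774 to 7884 in tumors. Irf8, a factor of monocyte and macrophage development, reached 4553 to 5373 (difference 11.09 ± 0.14), and Irf5, an interferon regulatory factor of inflammatory macrophages, 2835 to 3812 (difference 5.81 ± 0.12). Cebpb and Runx1, which mesenchymal cells also express, had smaller differences of 0.91 ± 0.20 and 0.98 ± 0.10, and are named after their values were seen. Among signalling genes Coro1a, an actin-binding protein of leukocytes, rose to 12425 to 18316 (difference 8.60 ± 0.14) and the tyrosine phosphatase Ptpn6 to 5305 to 6608 (difference 6.39 ± 0.10). Plcg2, a phospholipase, was already at 1399 and 1260 in H3.3K36M cells and differed by 3.04 ± 0.11. Of the oxidase partners, Cyba, the membrane partner of Cybb, reached 5287 to 11393 from 0 and 1.9, Rac2, a small GTPase, 4622 to 5494 and the cytosolic subunit Ncf4 3564 to 4735.

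Of the 8 ligands listed for these receptors, 7 passed the filter and all 7 were higher in tumors than in H3.3K36M cells, against 41% of all genes. Csf1 was nearly as high in the cells as in the tumors, at 12763 and 12661 against 15268 to 18200 (difference 0.35 ± 0.10, adjusted p = 0.0082). Il34, the other ligand of Csf1r, was at 43.9 and 46.5 against 1861 to 3469 (difference 5.88 ± 0.21). Ccl2 and Ccl7, which act on Ccr2, were at 911 and 968 against 5526 to 7649 (difference 2.78 ± 0.13) and at 321 and 326 against 3409 to 5089 (difference 3.67 ± 0.15). Ccl8 was at 13.9 and 6.6 against 3996 to 10983, and Ccl12, listed at 0 in H3.3K36M cells, reached 3561 to 6170. Cx3cl1, the ligand of Cx3cr1, differed by 1.39 ± 0.17, from 3095 and 2951 to 5725 to 9859. Csf2, which supports granulocytes and macrophages, stayed at or below 10.1 in all libraries of this table.

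Many markers of other host cells were also higher in the tumors, and their part in the results was not tested. Among all genes tested, 41% were higher and 34.2% lower. All 8 NK cell genes were called higher, with summed levels of 2630 to 9533 in tumors and 2.36 to 28.8 in cultures, led by the cytotoxic genes Gzmb (957 to 3827), Prf1 (565 to 2984) and Gzma (395 to 1151). Of 8 endothelial genes 7 were higher (11871 to 31248 against 198 to 1057 in sum), led by the junction genes Cdh5 (5020 to 22894) and Pecam1 (1867 to 3100). Of 11 neutrophil genes listed 10 were used here, of which 5 were tested and higher (1973 to 3029 against 298 to 532), led by the growth factor receptor Csf3r (1089 to 1460), while the granule and secreted protein genes Retnlg, Ngp, Camp and Elane stayed below 10 in every tumor. Of 8 mast cell genes 6 were higher and 1 lower (1144 to 5878 against 8.02 to 698.6), led by the protease Mcpt4 (121 to 1828), and of 8 dendritic cell genes 6 were higher (1686 to 2740 against 76.6 to 498), led by Itgax (729 to 1954). Of 8 T cell genes only 5 were tested, with 3 higher and 1 lower (828 to 1754 against 21.0 to 47.1), led by Cd4 (431 to 1385). Cd3e reached 0.67 at most and Trat1 was listed at 0. Of 5 B cell genes only 3 were tested, and these were higher (303 to 1122 against 1.34 to 7.67), led by Cd79b (251 to 474). Ms4a1 and Pax5 stayed below 10 in every tumor. Of 5 red cell genes 4 were higher (7664 to 19469 against 11.6 to 885), led by the globin Hba-a1 (5797 to 14809). Of 7 mesenchymal genes 5 were lower and 1 higher, and Col1a1 went from 355824 and 314927 in H3.3K36M cells to 65865 to 88626.

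**Figure D2:**
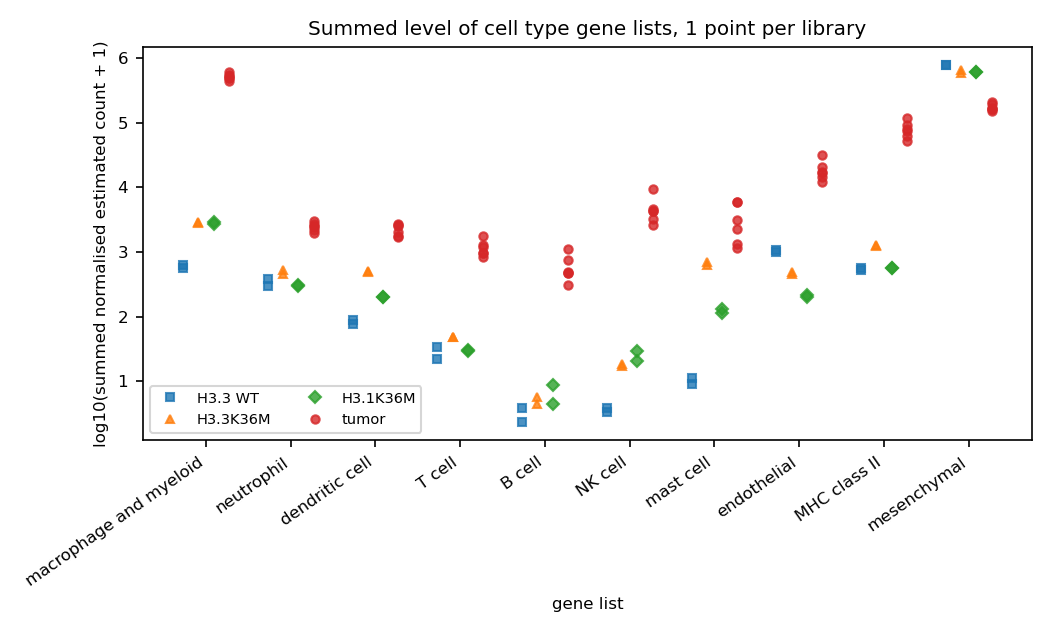
Summed level of each gene list (log10 scale of the summed normalised estimated count + 1) with 1 point per library; squares are H3.3 wild-type, triangles H3.3K36M, diamonds H3.1K36M cells and circles tumors. The 6 tumors lie above all 6 cultured libraries for each of the lists plotted except the mesenchymal markers, where they lie below.

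The 41 genes did not vary as 1 block among the tumors. Their summed level was 485675, 550572, 484121, 608094, 528965 and 440282 in tumors 1 to 6. The median log2 deviation of the genes from their own mean over tumors was -0.08, 0.07, -0.07, 0.19, 0.04 and -0.11. The value for tumor 4 was 0.0248 after quantile normalisation of the tumors and 0.0739 without the C1q and lysozyme genes. Tumor 4 was the highest for 22 genes, where 23.6% of all tested genes had their highest value there. Tumor 6 was the highest for 11 and the lowest for 17 genes, and it was an extreme tumor for genes at large, with 39.5% highest and 30.4% lowest there. The median CV over tumors was 16.8% for the 41 genes, 16.7% for all tested genes and 13.8% for the 11449 tested genes with a tumor mean of at least 100.

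Tumor 6 was low for some of the genes and high for others, and most roles were mixed. C1q genes had a median log2 deviation of -0.48 there, the ITAM adaptors and Trem2 -0.51, scavenger receptors and lectins -0.32, and Aif1 and Arg1 -0.72. Both oxidase subunits (median 0.25) and 7 of 8 surface and adhesion genes (median 0.12) were above their own means. The remaining roles were split, with 4 of 6 lysosome and phagosome genes above their mean (Lyz1 -0.70, Mpeg1 0.68), 1 of 5 Fc receptors (Fcrls -0.52, Fcgr4 0.62) and 2 of 3 receptors (Csf1r -0.14, Cx3cr1 0.35). Scavenger genes were above in 3 of 9 cases, among them Siglec1 (0.83). In values, Trem2 was at 2645 in tumor 6 against 5334 to 8762 in the others and C1qa at 46784 against 70936.5 to 94129. Ptprc was at 5592 against 2418 to 2966, Mpeg1 at 14114 against 7519 to 8619 and Emr1 at 7589 against 4048 to 4885. The same library had the highest summed levels of NK cell (9533 against 2630 to 4633) and endothelial markers (31248 against 11871 to 20325), and the part of these in the pattern was not tested. Without tumor 6, as without any other single library, all 41 genes were still called higher in tumors than in H3.3K36M cells.

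**Figure D3:**
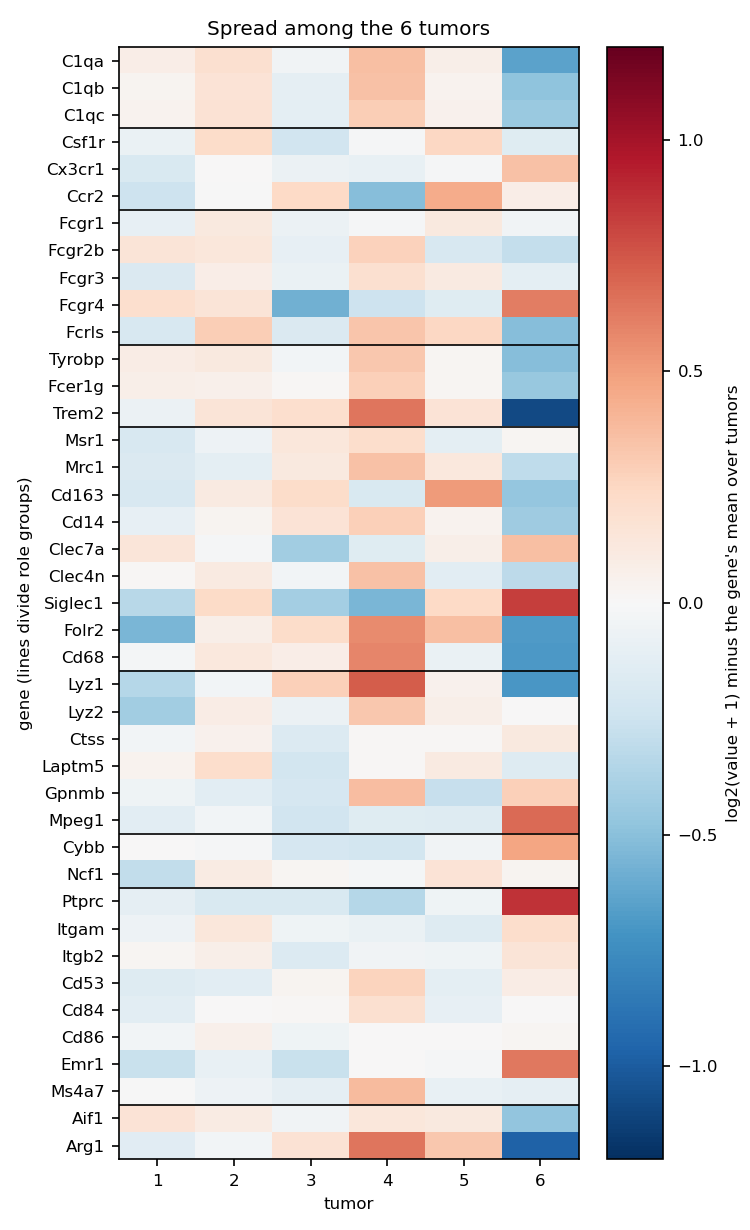
Deviation of each of the 41 genes (rows, by role) in each tumor (columns) from that gene's mean over the 6 tumors, in log2(value + 1), with red above and blue below. Tumor 4 is red for most genes, while tumor 6 is blue for C1q genes, ITAM adaptors, Trem2 and Arg1 and red for Ptprc, Siglec1, Mpeg1 and Emr1.

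Among cultured cells, H3.3K36M was compared with H3.3 wild-type to see which of these genes differ with the mutant histone before any tumor forms. Only 18 of the 41 passed the filter in the fit of 6 cultured libraries. Of these, 10 were called higher, 1 lower and 7 neither, where 38.6% of all 13404 genes tested were higher and 37.5% lower, and the median difference was 0.73 against -0.00 for all. Of the genes called higher, Csf1r, Ccr2, Lyz1, Gpnmb and Mpeg1 reached 10 in mutant libraries only, and Cd53 in these and 1 wild-type library. The filter favoured a rise for them, so the counts and the median describe the 18 and not the 41. Of the 7 called neither, 3 were C1qa, C1qb and C1qc. They were at 0 in all H3.3 libraries and passed only through H3.1K36M libraries. The largest rises were those of Cd53 and Gpnmb. Cd53 went from 10.7 and 8.66 to 1287 and 1407 (difference 6.98 ± 0.10, adjusted p = 6.71e-17), and Gpnmb from 2.67 and 2.89 to 548 and 532 (7.16 ± 0.15, adjusted p = 5.19e-15). Both lines of values are far outside the spread of the wild-type libraries.

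Smaller rises were called for Mpeg1, from 0 and 1.44 to 21.4 and 21.8 (3.85 ± 0.49, adjusted p = 4.5e-06), for Lyz2 (1.82 ± 0.13, adjusted p = 1.09e-08), for Cd84, from 119 and 161 to 258 and 235 (0.83 ± 0.14), and for Cd14 (0.64 ± 0.11). Csf1r (1.42 ± 0.47, adjusted p = 0.0132), Ccr2 (1.09 ± 0.47, adjusted p = 0.0483), Lyz1 (1.48 ± 0.41, adjusted p = 0.00436) and Itgb2 (0.84 ± 0.34, adjusted p = 0.0346) were called at levels below 50. Fcgr1 was the 1 gene called lower (-1.40 ± 0.30, adjusted p = 0.000643). After quantile normalisation Csf1r, Ccr2, Lyz1 and Itgb2 were not called (adjusted p = 0.257, 0.651, 0.185 and 0.402), which left 6 higher and 2 lower, and at a minimum of 50 there were 5 and 0. The same 4 were not called without H3.3K36M library 2 (adjusted p = 0.062, 0.138, 0.0689 and 0.163), and each of the 4 but Lyz1 also lost its call without other single libraries. Fcgr4 (0.64 ± 0.40), Cd68 (0.45 ± 0.21), Folr2 (-0.05 ± 0.40) and Ncf1 (-0.26 ± 0.21) were tested and not called.

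Because Cd53 and Gpnmb dominated the cultured differences, their start regions are shown 5′ to 3′ (RefSeq, GRCm38.p6; Cd53 at chr3:106790150-106790399, minus strand, and Gpnmb at chr6:49036268-49036517, plus strand), with GAGGAA in capitals where present.
Cd53: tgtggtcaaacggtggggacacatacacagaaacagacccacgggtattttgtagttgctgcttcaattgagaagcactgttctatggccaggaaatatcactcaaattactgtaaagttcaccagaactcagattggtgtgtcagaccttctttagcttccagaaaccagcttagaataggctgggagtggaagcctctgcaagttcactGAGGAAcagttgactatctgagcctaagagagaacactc
Gpnmb: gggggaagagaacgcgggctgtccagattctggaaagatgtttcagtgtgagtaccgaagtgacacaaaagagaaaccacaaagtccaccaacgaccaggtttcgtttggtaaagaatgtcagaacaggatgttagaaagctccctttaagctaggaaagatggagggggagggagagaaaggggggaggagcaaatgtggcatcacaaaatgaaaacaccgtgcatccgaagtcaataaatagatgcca
The Cd53 window held 1 copy of the core and the Gpnmb window none.

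H3.1K36M cells were set against the same wild-type libraries, so the 2 comparisons share their controls and are not independent. Of 18 genes tested, 10 were higher and 3 lower (41.1% and 38.4% of all genes), with a median difference of 1.23 against 0.02. With no filter 16 were higher, and at a minimum of 50 there were 4. Cd53 was at 1588 and 1615 (7.23 ± 0.10, adjusted p = 2.41e-17) and Gpnmb at 257 and 270 (6.13 ± 0.15, adjusted p = 2.03e-14). Mpeg1 was at 13.3 and 22.0 (3.54 ± 0.49), Cd14 rose by 1.33 ± 0.11, Lyz2 by 1.14 ± 0.13, Lyz1 by 1.71 ± 0.41 and Fcgr4 by 1.37 ± 0.40. Lower were Fcgr1 (-1.60 ± 0.30), Ncf1 (-1.03 ± 0.21) and Cd84, at 95.9 and 103 (-0.48 ± 0.14). The other 3 higher genes were C1qa, C1qb and C1qc, which were at 0 in all H3.3 libraries and passed the filter only through the H3.1K36M libraries. Gpnmb, Mpeg1, Lyz1 and Fcgr4 reached 10 in mutant libraries only, so the filter favoured a rise for them too. Cd84 was not called without wild-type library 2 (adjusted p = 0.0956), without H3.1K36M library 1 (0.0551) or after quantile normalisation (0.0825), and Fcgr4 was not called without H3.1K36M library 2 (0.0744). All 41 genes had a value above 0 in at least 1 H3.1K36M library, while 14 were at 0 in both wild-type and 7 in both H3.3K36M libraries. Depth was 25322433 and 23343297 estimated reads in wild-type, 56041798 and 34022137 in H3.3K36M and 49300531 and 35754318 in H3.1K36M libraries. The share of all genes at 0 was not counted, and the part of depth in these zeros was not tested.

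The H3.1K36M traces were small next to the tumor levels. The 4 genes with a tumor mean of at least 1000 that were at 0 in every H3.3 and siRNA library (C1qa, C1qb, Fcrls and Ms4a7) stood at 0.0203 to 0.0509% of their tumor mean in H3.1K36M library 1 and at 0.0297 to 0.0576% in library 2. Another 25 genes chosen by the same rule, not among the 41, had a median of 0% and 0.0539%. What the traces come from was not tested.

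Compared directly, H3.1K36M cells had 5 of 18 genes higher and 5 lower than H3.3K36M cells, where 35.4% and 32.8% of all genes were called, with a median of -0.14 against 0.01. With a minimum of 50, 2 were higher. C1qa, C1qb and C1qc passed the filter only through the H3.1K36M libraries, being at 0 in the others, so their calls were set by it. Higher were these 3, Cd14 (0.68 ± 0.11, adjusted p = 5.75e-05) and Cd53 (0.25 ± 0.10, adjusted p = 0.0382). Lower were Cd84 (-1.30 ± 0.14, adjusted p = 1.42e-06), Gpnmb (-1.03 ± 0.15, adjusted p = 3.13e-05), Lyz2 (-0.67 ± 0.13), Ncf1 (-0.77 ± 0.21) and Itgb2 (-0.80 ± 0.34, adjusted p = 0.0472). The mutant lines thus stood further apart in Gpnmb and Cd84 than in Cd53. Cd53 and Itgb2 were not called without any 1 of the 4 mutant libraries (adjusted p = 0.0751 to 0.27), and quantile normalisation left 5 higher and 3 lower.

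Knockdown of the H3K36 methyltransferases was set against scramble siRNA to see which of these genes it moves. Of 14 genes tested, 3 were higher and 2 lower with HMT siRNA, against 31.9% and 31.7% of all 13186 genes, with a median of 0.23 against 0.00. Cd53 rose from 12.1, 12.5 and 15.6 to 139, 120 and 111 (3.11 ± 0.16, adjusted p = 4.82e-12). Mpeg1 went from 0, 1.25 and 0 to 5.53, 14.2 and 5.16 (2.69 ± 0.54, adjusted p = 0.000261). Cd14 rose from 95.6, 128 and 128 to 226, 243 and 254 (1.04 ± 0.12, adjusted p = 3.36e-07). In these 3 genes the groups did not overlap, nor did they in Fcgr1 and Cd84 below. The same held for Csf1r, Fcgr4 and Folr2, which were not called, and the share of all genes without overlap was not counted. Fcgr1 went from 13.7, 16.3 and 19.0 to 9.96, 10.4 and 5.16 (-0.91 ± 0.30, adjusted p = 0.0134) and Cd84 from 87.8, 73.4 and 83.5 to 69.2, 59.7 and 52.6 (-0.43 ± 0.14, adjusted p = 0.0129). Neither Fcgr1 (adjusted p = 0.0844) nor Cd84 (0.0688) was called without HMT siRNA library 3, and quantile normalisation left 3 higher and 1 lower. Without control siRNA library 2, 5 were higher. Mpeg1 reached 10 in 1 HMT siRNA library only, and Gpnmb, Lyz1 and Itgb2 in no siRNA library. They passed the filter through the cell lines in the same fit. In a fit of the 6 siRNA libraries alone Mpeg1 was not tested, and the other 4 called genes kept their calls.

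Gpnmb was at 0 in all 3 control siRNA libraries and at 0, 0.746 and 0 in HMT siRNA libraries (0.27 ± 0.44, adjusted p = 0.614). Lyz2 was at 18.2, 17.6 and 15.6 in control and 17.7, 16.4 and 25.8 in HMT siRNA cells (0.19 ± 0.20, adjusted p = 0.434). Csf1r was at 1.52, 5.02 and 3.46 in control and 6.64, 5.22 and 12.4 in HMT siRNA cells (1.08 ± 0.46, adjusted p = 0.0502), and Folr2 at 10.6, 16.3 and 16.6 against 9.96, 5.97 and 8.25 (-0.77 ± 0.34, adjusted p = 0.0569). None of these 4 was called. Cd68 was at 19.7, 29.0 and 20.8 in control and 14.4, 20.1 and 21.7 in HMT siRNA cells, and Ncf1 at 29.6, 14.4 and 22.9 against 25.4, 17.0 and 24.3, with groups that overlapped. Of the 10 genes higher in H3.3K36M cells 9 were tested here, Ccr2 being the exception. Cd14, Mpeg1 and Cd53 were higher in both, a share of the 9 near the 31.9% of all genes called higher, Cd84 was lower here, and Fcgr1 was lower in both.

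Whether H3.3K36M and the knockdown move a gene to different degrees was tested in 1 fit of 10 libraries. Of 14 genes, 4 had a more positive response to H3.3K36M and none a more negative one (27.5% and 27.4% of all genes), with a median of 0.81 against -0.00. After quantile normalisation there were 4 and 2, and with no filter 9 and 0. Gpnmb and Lyz1 reached 10 in the H3.3K36M libraries only, and Mpeg1 and Csf1r in these and 1 HMT siRNA library, so the filter favoured a positive value for them and the count is a description. They were Gpnmb (6.80 ± 0.70, adjusted p = 1.53e-07), Cd53 (3.86 ± 0.25, adjusted p = 2.87e-10), Lyz2 (1.65 ± 0.32, adjusted p = 0.000249) and Cd84 (1.29 ± 0.22, adjusted p = 8.68e-05). Cd53 therefore rose in both systems, by more with the mutant histone, while Cd84 was called in opposite directions. Cd14 (-0.37 ± 0.19, adjusted p = 0.0999), Mpeg1 (0.90 ± 0.85, adjusted p = 0.386) and Fcgr1 (-0.44 ± 0.47, adjusted p = 0.451) were not called different, which does not show that they responded alike. Of the 41 genes 14 were at 0 in all HMT and 17 in all control siRNA libraries, and the share of all genes at 0 was not counted. Depth was 22406728 to 33107488 estimated reads in HMT and 13993307 to 19346834 in control siRNA libraries, and its part in these zeros was not tested. Without control siRNA library 2, 1 gene was called more negative.

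**Figure D4:**
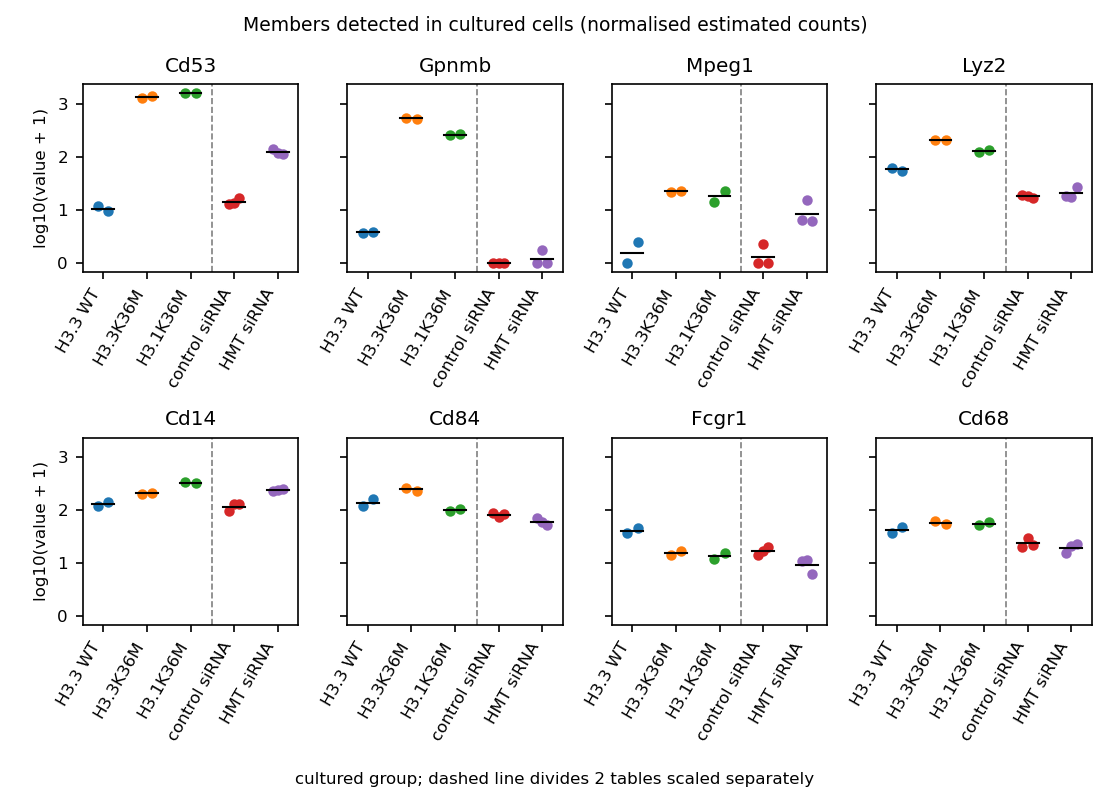
Levels of 8 genes in the cultured libraries, as log10(normalised estimated count + 1), with 1 point per library and a bar at the group mean; the dashed line divides the 2 tables, which were scaled separately. Cd53 rises in both mutant lines and with HMT siRNA, Gpnmb in the mutant lines only, and Cd68 differs little between groups.

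Ligands of the myeloid receptors also changed in culture. Csf1 rose from 4745 and 4516 in wild-type to 12763 and 12661 in H3.3K36M (1.46 ± 0.03) and 14487 and 14339 in H3.1K36M cells (1.64 ± 0.03). With HMT siRNA it rose by 1.36 ± 0.04, from 3340, 3261 and 2997 to 8300, 8105 and 8226, and the responses to mutant and knockdown were not called different (0.13 ± 0.06, adjusted p = 0.082). Csf1 thus rose in each of the 3 comparisons. Ccl2 rose from 32.1 and 23.1 to 911 and 968 in H3.3K36M (5.06 ± 0.14), to 130.0 and 138 in H3.1K36M (2.26 ± 0.14) and by 2.98 ± 0.14 with HMT siRNA. Ccl7 rose by 4.72 ± 0.26, 1.92 ± 0.26 and 2.72 ± 0.24 in the same order. Il34 was lower in all 3, by -2.18 ± 0.15, -1.03 ± 0.15 and -0.76 ± 0.18. Cx3cl1 rose with H3.3K36M (0.77 ± 0.05) and HMT siRNA (0.30 ± 0.04) and was lower with H3.1K36M (-1.11 ± 0.05).

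**Figure D5:**
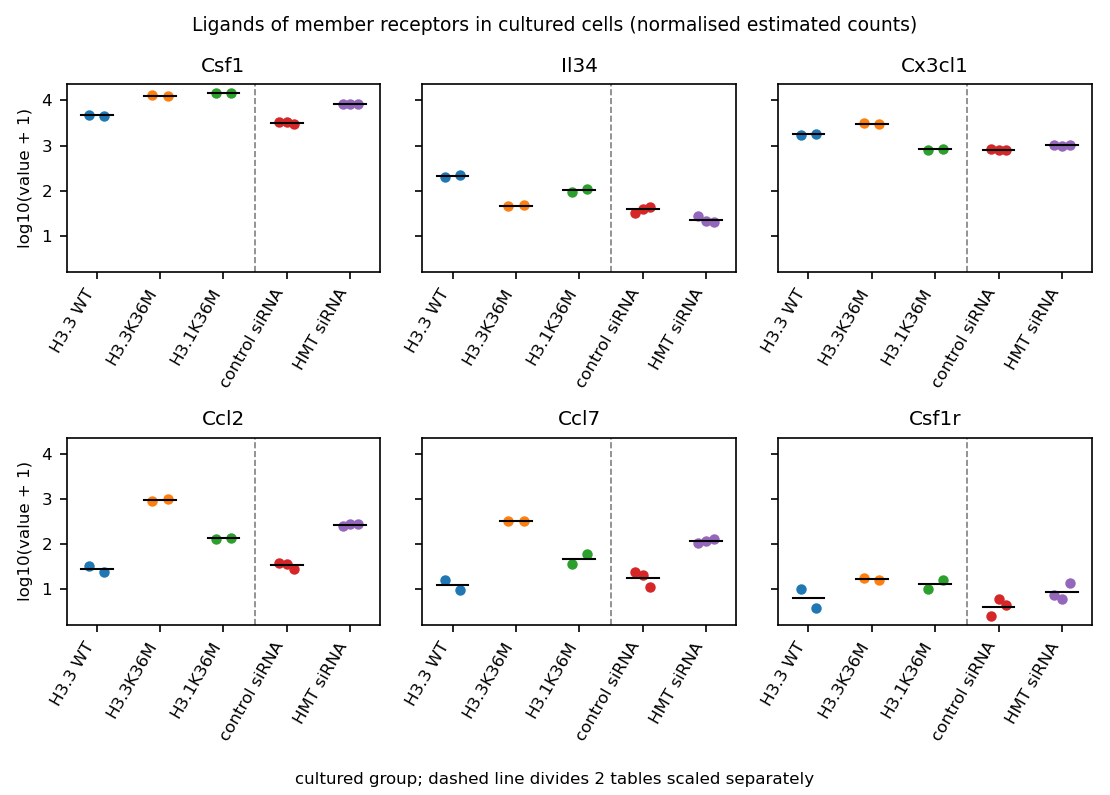
Levels of 5 ligands and of Csf1r in the cultured libraries, as log10(normalised estimated count + 1), with 1 point per library and a bar at the group mean; the dashed line divides the 2 tables, which were scaled separately. Csf1, Ccl2 and Ccl7 are higher and Il34 lower in both mutant lines and in HMT siRNA cells than in their controls, while Csf1r stays near the lower end of the axis in every group.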

How the data were processed

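RNA sequencing libraries of 12 cultures and 6 tumors used Trizol and TruSeq chemistry, per the labels' protocols. The submitters' processing notes name Bowtie 1.0.0, RSEM 1.2.12 and mm9; the annotation and counting options are not given in the sources used here. The authors deposited a signal of median-normalised estimated counts per gene, per the labels' descriptions, in tables scaled separately. Whole reads could be recovered for 35.1 to 55.9% of values (tolerance 0.01), so no count test was used. Low values stand for few reads and are imprecise.

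The test was two-sided limma 3.58.1 (R 4.3.3), with the trend and robust options of eBayes, on log2(value + 1), a scale that understates the change of low genes. Genes needed 10 or more in as many libraries as the smaller group held, p-values were Benjamini-Hochberg adjusted over all such genes, and the threshold was 0.05. Fits used 8 libraries (tumors and H3.3K36M cells), the 6 cultured libraries of the tumor table, and the 10 of the siRNA table. All 41 genes are named. Selected genes have culture values per library and a range over tumors, for some of them in the H3.3K36M cultures only. These are the 2 genes of each role with the highest median in tumors. Genes at 10 or more in a cultured group, or called in culture, are added. Other lists are given by their count and their leading genes by mean over tumors. The 41 genes, the roles and the other lists were chosen with earlier results of these data known; 6 listed genes were found under older symbols (Spi1, Syk, Pirb, Tfec, Dcstamp and Ocstamp) after the values were in hand. 1 gene first placed on the B cell list is not reported here and is in none of its counts. Shared 36-base stretches were counted in GENCODE transcripts of GRCm38, since mm9 was not used, and promoters came from RefSeq. The fits were tested on simulated data. Other steps used Python 3.11.15, numpy 2.4.6, pandas 2.3.3 and matplotlib 3.10.9. Alternatives were another pseudocount (10), no filter or a minimum of 50, quantile normalisation, limma without trend or robust options, other sets of libraries, a replicate block, and each library left out.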

Additional observations from a re-analysis of the deposited data

Results flagged for a closer look

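Dixon's ratio is the gap of an extreme tumor to its neighbour over the whole range. It was above its critical value in 12 of the 59 groups examined, 7 of them among the 41 genes. Its nominal rate is about 1 in 20 groups, but the groups examined share the same 6 tumors and are not independent. The share of all tested genes flagged by this rule was not counted, so the counts are a description. Tumor 6 was the extreme in 6 of the 7 genes. It was also the highest tumor for 39.5% and the lowest for 30.4% of all tested genes. It was highest for Mpeg1 (ratio 0.833), Ptprc (0.827), Emr1 (0.764), Cybb (0.724) and Cx3cr1 (0.697), and lowest for Aif1 (0.627). Tumor 4 was highest for Ms4a7 (0.813), at 8342 against 6382 in the next tumor. Among summed lists, tumor 6 was highest for NK cell genes (0.71), osteoclast genes (0.69; 13002 against 6052) and inflammatory activation genes (0.684; 5557 against 3264), and lowest for alternative activation genes (0.68; 9915 against 18320). Tumor 4 was highest for myeloid transcription factors (0.641; 30068 against 26515). What sets tumor 6 apart was not tested.

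The response to H3.3K36M differed from the response to HMT siRNA, by the test of the difference itself, for Gpnmb (6.80), Cd53 (3.86), Lyz2 (1.65) and Cd84 (1.29), all on the log2 scale. Gpnmb passed the filter only through the H3.3K36M libraries, so the filter favoured its positive value.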

How the results depend on the processing

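In tumors all 41 genes stayed higher and none lower under every alternative run, with adjusted p at most 0.0213. In culture the counts moved more. For H3.3K36M against wild-type cells (10 higher, 1 lower), 5 and 0 were called at a minimum value of 50, 6 and 2 after quantile normalisation, 2 lower without trend or robust options, and 6 to 9 higher and 1 lower with a library left out. For H3.1K36M against wild-type cells (10 and 3), 16 were higher with no filter and 4 at a minimum of 50. For H3.1K36M against H3.3K36M cells (5 and 5), 2 were higher at a minimum of 50 and 3 lower after quantile normalisation. For HMT against control siRNA (3 and 2), 1 was lower with no filter, 1 at a minimum of 50 and 1 after quantile normalisation, and leaving out a library gave 3 to 5 higher and 0 to 3 lower. For the difference of responses (4 and 0), 9 were higher with no filter, 2 lower after quantile normalisation, and 0 to 1 lower with a library left out. The median deviation of tumor 4 went from 0.19 to 0.0248 after quantile normalisation and 0.0739 without C1q and lysozyme genes. Fewer genes are tested at a minimum of 50 and more with no filter; the cause of the other moves was not tested. Quantile normalisation moved the median of all genes in the tumor comparison by -0.22. With replicate number as a block the counts were 10 and 1 for H3.3K36M, 10 and 3 for H3.1K36M, 5 and 5 between mutants, 4 and 2 for HMT siRNA and 4 and 0 for the difference, and 41 and 0 for tumors. Same-numbered libraries of the lines had deviations correlated at -0.01 to 0.02, and those of siRNA cells at 0.08 to 0.11, so numbers were not taken as pairs. Each siRNA library correlated best with its own number, a hint from the data and not the design. No called value of a gene changed direction under any alternative, and of the repeated single-gene tests 1111 kept their side of the threshold and 52 did not. The tumor comparison made up 615 of the repeated tests and lost none, so all 52 were in cultured cells. A gene that the minimum of 50 or the fit of the 6 siRNA libraries left untested was not counted.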

Other observations

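Antigen presentation and activation genes of macrophages are described by their counts. Beside these counts, 41% of all genes tested were higher and 34.2% lower in tumors. All 7 MHC class II genes were higher in tumors than in H3.3K36M cells, and tumor 1 held the largest sum (116331) and tumor 3 the smallest (52498). H2-Aa, a class II alpha chain, ranged from 9349 to 20683 in tumors against 8.1 and 8.5 in H3.3K36M cells, and H2-Eb1, a beta chain, from 8784 to 19156 against 12.1 and 15.2. Cd74, the invariant chain, was at 22588 to 53448 against 733 and 706. Genes of alternative activation were higher in 7 of 7 cases, among them the interleukin-4 receptor chain Il4ra (8508 to 19682 in tumors, 1171 and 1191 in H3.3K36M cells), the lectins Mgl2 (609 to 1621, against 10.9 and 8.8) and Clec10a (428 to 941, against 4.6 and 3.8).

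Of 8 inflammatory activation genes 6 were higher, 1 lower and 1 not called (Il6). Cxcl10, an interferon-induced chemokine, reached 964 to 1734, Il1b 286 to 2043 and Cxcl9 270.2 to 432, while Ptgs2, which encodes cyclooxygenase-2, fell from 3393 and 3669 to 76.5 to 908.5. Ptgs2 was the 1 exception and is named for that after its values were seen. Osteoclast genes were higher in 6 of the 6 tested. Acp5 was at 1890.4 to 4401, Ctsk at 286 to 901 and Mmp9 at 228 to 8234, with the top Mmp9 value in tumor 6. On the same list, the calcitonin receptor gene Calcr was listed at 0 in every tumor and Oscar reached 3.4 at most.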
